A study of Mus musculus with 6 samples.

Results

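The genes described here are 10 members of the pathway that builds the fetal ovary: the transcription factors Foxl2, Irx3, Irx5 and Runx1, the receptors Lgr5 and Esr2, the ligands Wnt4, Rspo1 and Bmp2, and the secreted inhibitor Fst. Every probe set whose platform annotation gave exactly 1 gene symbol equal to a member was taken, which gave 19 of the 45101 probe sets of the array, and all 10 genes of the 18194 named ones had at least 1. The samples are fetal mouse testes taken at E13.5, outcrossed to the 129S6/SvEvTac strain. The 3 Dmrt1 null samples are homozygous mutants by title, by description and by the series' design text, although their genotype entry reads Dmrt(flox/flox) and no Cre driver is named. The 3 control samples are called wt in the titles and Dmrt1 (+/-) in the descriptions, the genotype entry and the design text, so the controls may carry 1 mutant allele. The sources used here do not say whether a sample held 1 embryo or a pool. The p-values set a group difference against the spread between these samples, which limma moderates using all tested probe sets.

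In the bipotential gonad of the mouse, R-spondin and Wnt ligands raise beta-catenin activity and steer supporting cells towards the pre-granulosa fate, while Sry and Sox9 steer them towards the Sertoli fate and hold the ovarian route down. Foxl2 and Runx1 then maintain granulosa identity, and follistatin and Bmp2 are products of the female supporting cells. Dmrt1, a DM domain transcription factor of Sertoli and germ cells, is known in the adult mouse testis to keep Foxl2 silent. The data address whether ovarian pathway transcripts differ when Dmrt1 is missing from the fetal testis, at a stage just after testis cords form.

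The Dmrt1 transcript was far lower in the null arrays, though its probe set still read above the array median there. Dmrt1 had intensities of 48.4, 26.9 and 23.8 in null replicates 1, 2 and 3, against 696, 1030 and 796 in control replicates 1, 2 and 3 (limma adjusted p = 0.00388). The Y-linked Eif2s3y read 2570 to 2950 in null arrays and 2470 to 3340 in control arrays, whereas Xist, the X-inactivation transcript of female cells, read 4.35 to 4.51 in null arrays and 3.99 to 5.48 in control arrays. Sox9 read 298, 554 and 535 in null replicates 1, 2 and 3, against 877, 419 and 485 in control replicates 1, 2 and 3. Of 23 Sertoli cell and testis pathway genes with a probe set, all but Sry lay above the array median in at least 1 array. The array medians were 14.6 to 14.8, the values carry no detection calls, and 3 arrays per group limit the precision. An intensity is a linear signal per probe set, so levels are compared between arrays and not between genes.

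No ovarian pathway member passed the test in Dmrt1 null testes, and Foxl2 signal stayed below the array median in every null array. Of the 19 probe sets, 8 had a mean log2 intensity of at least 4 over the 6 arrays and were tested, and they belong to 6 genes: Fst, Wnt4, Rspo1, Bmp2, Runx1 and Irx3. By limma with Benjamini-Hochberg adjustment over all 22082 tested probe sets, 0 of the 8 were called at 0.05, with adjusted p from 0.773 to 0.989. The background was low, at 6 called probe sets, or 0.0272%, all 6 lower in null and 0 higher. At an unadjusted p under 0.05 there was 1 member probe set, that of Fst, against 6.04% of all tested probe sets. Of the 6 genes, each at its brightest probe set, 3 had a positive difference of null minus control and 3 a negative one, with a median log2 difference of -0.13, against a median of 0.03 over the 11874 genes tested. Leaving out 1 array moved the members' median to -0.31 (null replicate 1, and likewise control replicate 1), -0.21 (control replicate 2) or -0.01 (control replicate 3). Foxl2, Irx5, Esr2 and Lgr5 had 0 probe sets above this threshold. In the fit with no filter over all 45101 probe sets, their 6 probe sets had adjusted p from 0.879 to 0.992, with 0 called by limma and 0 at an unadjusted p under 0.05. In whole testes, fewer cells of a type and less RNA per cell cannot be told apart.

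**Figure D1:**
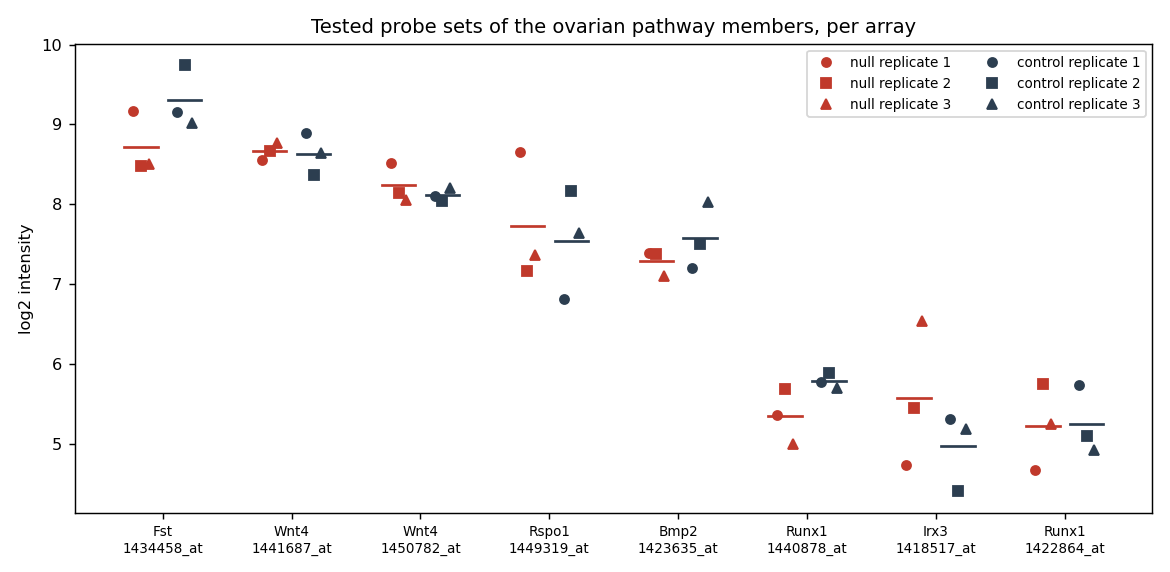
Log2 intensity (vertical axis) of the 8 tested probe sets (horizontal axis) in each array, with null arrays in red left of control arrays in dark blue; symbols give the replicate and short lines the group mean. The groups overlap at 7 of the 8, and at Runx1 1440878_at the 3 null arrays, at 32.0 to 51.6, lie below the 3 control arrays, at 52.0 to 59.1.

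**Figure D2:**
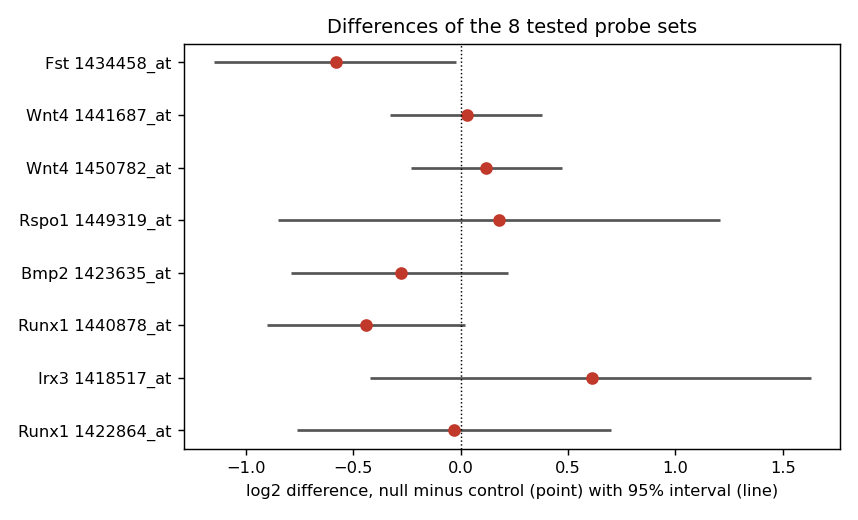
Log2 difference of null minus control (points) with the 95% interval of the limma fit (lines) for the 8 tested probe sets. Intervals are narrowest for the Wnt4 probe sets and widest for Irx3 and Rspo1, and the interval of Fst, from -1.15 to -0.02, is the 1 interval that leaves out 0 before adjustment.

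Foxl2, the forkhead factor that maintains granulosa cells, gave signals below the array median in all 6 arrays at both of its probe sets. Probe set 1456410_at read 9.54, 7.61 and 8.04 in null replicates 1, 2 and 3, against 8.51, 10.1 and 9.15 in control replicates 1, 2 and 3. Probe set 1444002_at read 4.56, 3.41 and 4.51 in null replicates 1, 2 and 3, against 3.71, 3.81 and 3.21 in control replicates 1, 2 and 3, which is below the lower quartile of every array. The groups overlap at both, and the differences have opposite signs, -0.14 and 0.21 on the log2 scale. No ovary was analysed here, so the reading of these probe sets in a tissue that makes Foxl2 is not known from these data. In the fit with no filter, the intervals were 0.731-fold to 1.12-fold at 1456410_at (limma adjusted p = 0.902) and 0.944-fold to 1.42-fold at 1444002_at (limma adjusted p = 0.879). These intervals are for the signal of the probe sets.

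The RefSeq promoter table (GRCm38.p6) held windows for 6 members, and 4 windows are printed. They are that of Foxl2, the defining factor of granulosa cells, and that of Rspo1, the ligand with the widest spread between arrays. The other 2 are the annotated starts of Runx1, whose 2 tested probe sets had log2 differences of -0.44 and -0.03. Which start a Runx1 probe set reads is not given in the sources used. Each line is the 250 bases before a start, 5′ to 3′ on the gene's strand, with CG dinucleotides in capitals. The positions are chr9:98955357-98955606 on the plus strand for Foxl2, chr4:124986180-124986429 on the plus strand for Rspo1, and chr16:92826075-92826324 and chr16:92697330-92697579 on the minus strand for the distal and proximal starts of Runx1.
Foxl2: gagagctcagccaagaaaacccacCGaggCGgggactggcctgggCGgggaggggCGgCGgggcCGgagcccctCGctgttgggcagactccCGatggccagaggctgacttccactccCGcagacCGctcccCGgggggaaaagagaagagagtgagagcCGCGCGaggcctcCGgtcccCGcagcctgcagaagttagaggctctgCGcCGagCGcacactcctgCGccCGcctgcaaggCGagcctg
Rspo1: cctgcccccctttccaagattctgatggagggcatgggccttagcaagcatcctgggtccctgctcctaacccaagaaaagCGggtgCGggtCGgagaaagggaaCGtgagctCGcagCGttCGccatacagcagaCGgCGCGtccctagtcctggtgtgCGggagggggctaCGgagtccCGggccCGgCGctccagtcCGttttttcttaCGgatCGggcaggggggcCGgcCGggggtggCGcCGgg
Runx1 distal: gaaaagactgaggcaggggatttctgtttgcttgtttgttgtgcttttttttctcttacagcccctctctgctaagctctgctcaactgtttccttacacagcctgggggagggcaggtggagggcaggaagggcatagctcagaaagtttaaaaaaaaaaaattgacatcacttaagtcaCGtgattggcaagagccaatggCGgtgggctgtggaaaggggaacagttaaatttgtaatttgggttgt
Runx1 proximal: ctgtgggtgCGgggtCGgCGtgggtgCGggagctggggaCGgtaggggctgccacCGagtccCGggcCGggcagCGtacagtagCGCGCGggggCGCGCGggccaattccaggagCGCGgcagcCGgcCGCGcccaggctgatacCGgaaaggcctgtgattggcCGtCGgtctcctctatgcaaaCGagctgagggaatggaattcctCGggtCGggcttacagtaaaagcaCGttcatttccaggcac
The Foxl2 and Rspo1 stretches hold 22 CG dinucleotides each, against a median of 6 over 32851 such windows. The distal Runx1 stretch holds 2 and the proximal one 27. Among the other members, the stretch holds 44 in Wnt4, 13 in Irx3 and 12 in Esr2. The letters ACAATGT, or ACATTGT on the other strand, a core found in DM domain binding motifs that also contains the ACAAT core bound by Sox proteins, are in 0 of the 7 member windows of 300 bases (250 before and 50 after the start), against 2.96% of all such windows. This says only that these letters are not in these windows.

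Runx1, a runt domain factor that supports granulosa identity beside Foxl2 and is also a factor of blood-forming cells, had 6 probe sets, all with a negative difference, from -0.44 to -0.01 on the log2 scale. Probe set 1440878_at read 41.0, 51.6 and 32.0 in null replicates 1, 2 and 3, against 55.0, 59.1 and 52.0 in control replicates 1, 2 and 3. Every null array was below every control array there, narrowly so for null replicate 2. Its log2 difference was -0.44 ± 0.20 (standard error, limma adjusted p = 0.773), so it did not pass the test. Probe set 1422864_at read 25.4, 53.8 and 38.0 in null replicates 1, 2 and 3, against 53.6, 34.2 and 30.2 in control replicates 1, 2 and 3. The highest null and highest control arrays were level there, and the difference was -0.03 (standard error 0.32, limma adjusted p = 0.989). Among the 4 dimmer probe sets, the null arrays also lay below the control arrays at 1422865_at, with 13.7 to 15.1 in null and 15.5 to 20.4 in control. The same held at 1452530_a_at, with 7.27 to 9.12 in null and 9.23 to 9.76 in control, all 6 values below the array median. Such separation with null lower held at 3 of the 19 member probe sets, all of Runx1, and at 5.25% of the whole table. Among tested probe sets it held at 1 of 8 members' and at 6.06% of all. The Runx1 probe sets share 1 gene and the same 6 RNA samples, so they do not count as separate observations.

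The Iroquois homeodomain factors Irx3 and Irx5, neighbours on chromosome 8 that are both active in the fetal ovary of the mouse, each had 1 probe set. Irx3 read 26.7, 43.7 and 92.9 in null replicates 1, 2 and 3, against 39.9, 21.2 and 36.4 in control replicates 1, 2 and 3. The groups overlap, and null replicate 3 stands above the other 5 arrays. The log2 difference of 0.61 was the most positive among the members, with a standard error of 0.44 and an interval of 0.746-fold to 3.10-fold (limma adjusted p = 0.805). Without null replicate 3 it was 0.12. Irx5 read 5.17, 6.33 and 7.48 in null replicates 1, 2 and 3, against 7.56, 6.58 and 6.39 in control replicates 1, 2 and 3. All 6 values lie below the array median, and the groups overlap.

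Of the receptors, neither Lgr5 nor Esr2 passed the filter on dim probe sets. Lgr5, an R-spondin receptor that marks pre-granulosa cells of the perinatal ovary, read 10.2, 16.6 and 11.2 in null replicates 1, 2 and 3, against 20.9, 14.5 and 11.2 in control replicates 1, 2 and 3 at probe set 1450988_at. The groups share the value 11.2, and 4 of the 6 arrays lie below their median intensity. Its other probe set, 1444519_at, read 3.78 to 4.60 in null and 3.58 to 4.44 in control. Esr2, the oestrogen receptor beta of granulosa cells, read 5.94, 6.06 and 6.76 in null replicates 1, 2 and 3, against 7.75, 6.17 and 5.35 in control replicates 1, 2 and 3. Its null values lie inside the control range, and its log2 difference was -0.02.

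**Figure D3:**
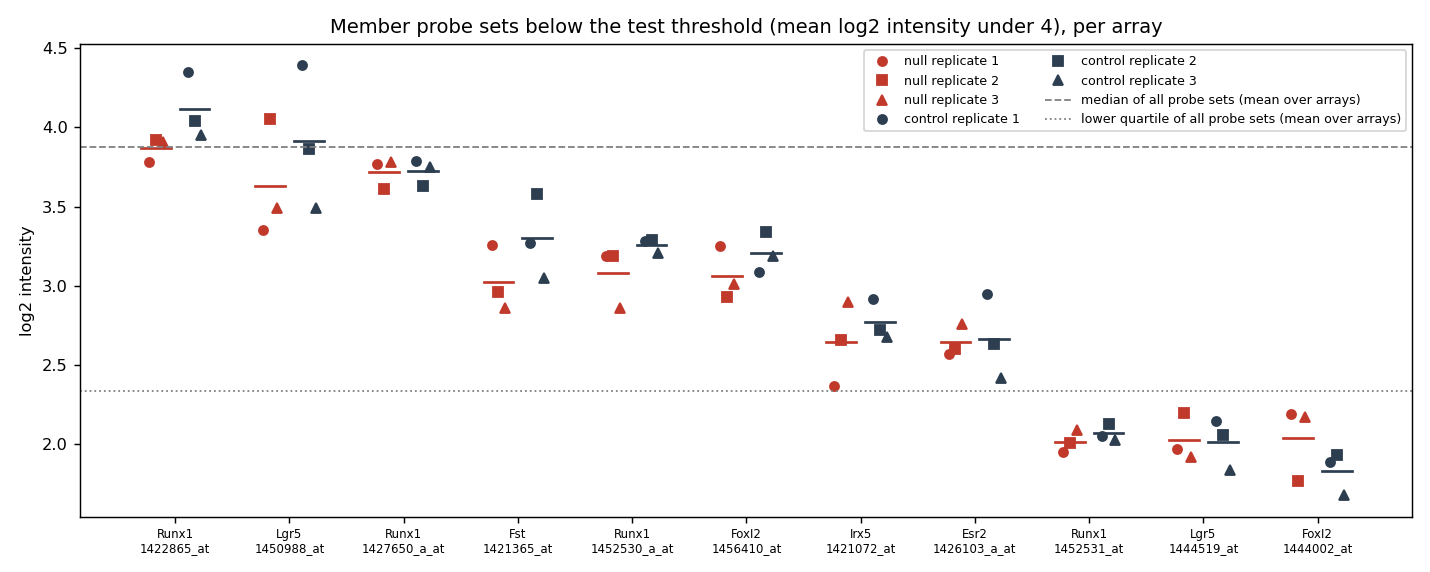
Log2 intensity (vertical axis) of the 11 member probe sets with a mean log2 intensity under 4, in each array, with null arrays in red left of control arrays in dark blue; short lines are group means, and dashed and dotted lines are the median and lower quartile of all probe sets. Of the 11, 9 lie below the array median in all 6 arrays, both Foxl2 probe sets among them.

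Wnt4, the ligand that promotes the female route in the mouse gonad and is also made outside supporting cells, had clear signal in every array. Probe set 1441687_at read 374, 407 and 437 in null replicates 1, 2 and 3, against 473, 331 and 400.0 in control replicates 1, 2 and 3. The null arrays lie inside the control range, and the log2 difference was 0.03 (standard error 0.15, limma adjusted p = 0.977). Probe set 1450782_at read 366, 282 and 266 in null replicates 1, 2 and 3, against 277, 264 and 294 in control replicates 1, 2 and 3, with a log2 difference of 0.12 (standard error 0.15, limma adjusted p = 0.885). The intervals of 0.798-fold to 1.31-fold and 0.851-fold to 1.38-fold were the narrowest among the tested probe sets. The sign of the difference turned at 1441687_at, to -0.03 without null replicate 3 and -0.10 without control replicate 2, and at 1450782_at, to -0.02 without null replicate 1. The upper bounds put a Wnt4 gain above 1.38-fold outside the 95% interval at both probe sets.

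Rspo1, the secreted R-spondin that strengthens Wnt signalling and whose loss in XX mice turns the ovary towards testis, had a wide spread inside each group. It read 401, 144 and 164 in null replicates 1, 2 and 3, against 113, 288 and 200.0 in control replicates 1, 2 and 3. The highest array was 3.55-fold above the lowest, with null replicate 1 and control replicate 2 the highest of their groups. On the log2 scale it differed by 0.18 ± 0.45 (standard error, n = 3 each), with an interval of 0.553-fold to 2.32-fold (limma adjusted p = 0.937). Its sign turned when single arrays were left out, to -0.28 without null replicate 1 and -0.18 without control replicate 1.

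Bmp2, a BMP ligand enriched in the fetal ovary of the mouse, read 168, 167 and 137 in null replicates 1, 2 and 3, against 147, 181 and 261 in control replicates 1, 2 and 3. The groups overlap, and control replicate 3 is the highest array. The log2 difference was -0.28 ± 0.22 (standard error, limma adjusted p = 0.813), and it was -0.06 without control replicate 3. The summed intensity of 10 macrophage markers was also highest in control replicate 3, at 3436, with 2339 to 2750 in null arrays and 2710 and 2770 in the other control arrays. The sum of 10 interstitial and peritubular markers was highest in control replicate 3 too, at 25280. It was 21980 to 23900 in null arrays and 23530 and 23780 in the other control arrays. List medians of log2 intensity centred on each gene's mean over arrays were also compared. The macrophage median was highest in control replicate 3, at 0.37. The interstitial median was not, at 0.11 there and 0.12 in null replicate 1. The part of any of these cells in the Bmp2 signal was not tested.

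Fst encodes follistatin, which binds activin and blocks it, and which depends on Wnt4 in the fetal ovary of the mouse. Probe set 1434458_at read 578, 358 and 364 in null replicates 1, 2 and 3, against 574, 853 and 518 in control replicates 1, 2 and 3. Null replicates 2 and 3 lie below every control array, while null replicate 1 lies within the control range. The mean was 433 ± 125 in null and 648 ± 179 in control (SD, n = 3 each). The log2 difference of -0.58 had a standard error of 0.24, with an interval of 0.451-fold to 0.986-fold. The limma p of 0.0439 was 0.773 after adjustment, so Fst did not pass the test, and the unadjusted rate of lower probe sets was 3.28% over the array. Without control replicate 2 the difference was -0.37, and it was -0.81 without null replicate 1. The dimmer probe set 1421365_at read 9.61, 7.79 and 7.28 in null replicates 1, 2 and 3, against 9.67, 12.0 and 8.27 in control replicates 1, 2 and 3, below the array median in all 6 arrays.

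The rest of the pathway was also without a called gene. Among other R-spondin, Wnt and beta-catenin genes, 22 of 26 were tested at their brightest probe set, 12 with a positive and 10 with a negative difference, a median of 0.02 and 0 called in either direction. Over all genes, each at its brightest probe set, 0.0505% were called and 6.44% had an unadjusted limma p under 0.05, which 1 gene of this list had. That gene was Wnt5a, a ligand of the mesenchyme, at 1500 ± 273 in null and 2040 ± 150.0 in control (SD, n = 3 each), a difference of -0.45 on the log2 scale (limma adjusted p = 0.773). Wnt6, another ligand, had a difference of 0.30 with overlapping groups.

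Activin, follistatin and BMP pathway genes other than members numbered 24, all tested, with 9 positive and 15 negative differences, a median of -0.03 and 0 called by limma, also 0 at an unadjusted p under 0.05. Inhba, which encodes the activin A subunit that follistatin binds, read 92.4, 68.0 and 35.5 in null replicates 1, 2 and 3, against 90.9, 82.3 and 89.6 in control replicates 1, 2 and 3. Null replicate 3 stands apart there, and the log2 difference was -0.53 (limma adjusted p = 0.778). Bmpr2, the type II BMP receptor, had a difference of -0.13.

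Relatives of the member transcription factors gave 4 tested genes of 11, all 4 with a negative difference between -0.15 and -0.05, and 0 called. Among all 11874 genes tested, 5188 had a negative difference. Of the 4, 1 had an unadjusted limma p under 0.05, Cbfb, against 6.44% of all genes. Cbfb, the shared partner of the Runx proteins, read 3210, 3220 and 3010 in null replicates 1, 2 and 3, against 3510, 3440 and 3400.0 in control replicates 1, 2 and 3. All null arrays were below all control arrays, and the log2 difference was -0.13 (limma adjusted p = 0.773). Such separation held at 6.06% of all tested probe sets. Cbfb was named for the smallest p in its list, which favours genes with separated groups. Foxo1, a forkhead factor, had a difference of -0.15. The relatives Irx1, Irx2, Irx4, Irx6, Runx3 and Foxl1 lay below the array median in all 6 arrays.

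Of 8 other oestrogen genes, 6 were tested and all 6 had a negative difference, with a median of -0.18 and 0 called. Over all genes tested, 5188 of 11874 had a negative difference. At an unadjusted limma p under 0.05 there was 1 gene of this list, Hsd17b1, against 6.44% of all genes. Hsd17b1, an enzyme that makes oestradiol in granulosa cells and is also made by fetal Sertoli cells, read 35.7, 24.4 and 39.7 in null replicates 1, 2 and 3, against 57.3, 75.0 and 44.8 in control replicates 1, 2 and 3. The groups do not overlap, and the difference was -0.83 on the log2 scale (limma adjusted p = 0.773). Separation with null lower held at 6.06% of all tested probe sets. Hsd17b1 was named for the smallest p in its list, which favours genes with separated groups. Ncoa1, a coactivator of nuclear receptors, had a difference of -0.21.

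Other pre-granulosa and fetal ovary genes gave 11 tested of 15, with 5 positive and 6 negative differences, a median of -0.03 and 0 called, and 1 at an unadjusted p under 0.05. That was Nr0b1, a nuclear receptor of the gonad and adrenal that is active in both sexes, at 220.0, 162 and 202 in null replicates 1, 2 and 3, against 158, 117 and 123 in control replicates 1, 2 and 3. All null arrays were above all control arrays, and the difference was 0.55 on the log2 scale (limma adjusted p = 0.773). Fgfr2, a receptor for Fgf9, had a difference of -0.21, and Adamts19, Fshr and Sprr2d lay below the array median in all 6 arrays. Of 14 ovarian germ cell genes 3 were tested and 0 called, and 10 lay below the array median in all 6 arrays, Figla, Gdf9, Nobox and the 3 zona pellucida genes Zp1, Zp2 and Zp3 among them. At an unadjusted limma p under 0.05 there was 1 of them, Zar1, an oocyte factor. It read 27.4, 26.7 and 49.9 in null replicates 1, 2 and 3, against 21.1, 12.0 and 13.0 in control replicates 1, 2 and 3. All null arrays were above all control arrays, and the difference of 1.16 on the log2 scale did not pass the test (limma adjusted p = 0.773). Control replicates 2 and 3 lay below the array median for Zar1. Nr0b1 and Zar1 were named for the smallest p in their lists, which favours genes with separated groups. The share of all probe sets with null above control was not counted. Rec8, a cohesin of meiosis, had a difference of -0.37.

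On the testis side, Sertoli cell and testis pathway genes gave 22 tested of 24. Of these, 13 had a positive and 9 a negative difference, with a median of 0.03. By limma 0 were called higher and 2 lower, Dmrt1 and the Sertoli cystatin gene Cst9. The summed intensity of this list was 22770 to 24740 in null arrays and 26200 to 28000 in control arrays. Both called genes are part of that sum, and Cst9 alone had a mean of 1060 in null and 3150 in control. With log2 intensities centred on each gene's mean over arrays, the list medians overlapped. They were -0.1 to 0.12 in null arrays and -0.08 to 0.11 in control arrays. Amh, the hormone of fetal Sertoli cells, read 166, 162 and 133 in null replicates 1, 2 and 3, against 153, 140.0 and 148 in control replicates 1, 2 and 3, a log2 difference of 0.06.

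Cell type markers varied between arrays within each genotype, and the arrays that stood apart were also extreme for Irx3 and Rspo1. The 10 endothelial markers summed to 2464, 4296 and 4674 in null replicates 1, 2 and 3, and to 4416, 1651 and 4130 in control replicates 1, 2 and 3, all with signal above the array median in at least 1 array. Null replicate 1 and control replicate 2 were therefore low in both groups. Irx3 was lowest in the same arrays, at 26.7 and 21.2, and highest in null replicate 3, where the endothelial sum was highest too. The 6 erythroid markers with a probe set summed to 13420, 18110 and 18380 in null replicates 1, 2 and 3, and to 19220, 10860 and 14990 in control replicates 1, 2 and 3, again lowest in null replicate 1 and control replicate 2 within their groups but highest in control replicate 1, where Irx3 read 39.9. The part of endothelial and erythroid cells in the Irx3 values was not tested.

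Rspo1 ran the other way. The 9 coelomic epithelium and mesothelium markers summed to 16300, 12840 and 12400 in null replicates 1, 2 and 3, and to 11570, 16600 and 13890 in control replicates 1, 2 and 3, with Msln below the array median in all 6 arrays. The 12 germ cell markers with a probe set summed to 18310, 16290 and 15170 in null replicates 1, 2 and 3, and to 15100, 23020 and 16910 in control replicates 1, 2 and 3, with Tdrd1 below the array median throughout. For Rspo1 and for the sums of both lists, null replicate 1 and control replicate 2 were the highest 2 arrays and control replicate 1 the lowest. The list medians of centred log2 intensity gave the same highest 2 arrays and the same lowest. Single genes did not all follow, and Igfbp5 of the coelomic list was lowest in null replicate 1. It read 5690, 5900 and 6130 in null replicates 1, 2 and 3, against 6410, 6170 and 6480 in control replicates 1, 2 and 3. The 5 Leydig cell markers with a probe set summed to 14590, 4702 and 3685 in null replicates 1, 2 and 3, and to 4557, 10460 and 11320 in control replicates 1, 2 and 3. The 10 mesonephros and duct markers with a probe set summed to 9074 to 11500 in null arrays and 9737 to 11740 in control arrays, highest in null replicate 1 and control replicate 2 within their groups. The sums of 10 interstitial and peritubular markers overlapped as well, at 21980 to 23900 in null arrays and 23530 to 25280 in control arrays. The part of any of these cells in the Rspo1 values was not tested. No gene of these marker lists was called apart from the Sertoli ones, and the lowest limma adjusted p among them, 0.0979, was that of Ret in the mesonephros list. By sign, all 10 macrophage and all 5 Leydig genes were lower in null, and all 6 erythroid genes higher. Of 10 endothelial genes, 9 were higher and 1 lower, and the other lists had both signs. Over all genes tested, 6686 were higher and 5188 lower. Genes of a list share the same 6 arrays, so they do not count as separate observations. With null replicate 1 and control replicate 2 both left out, a choice made after seeing the data, Rspo1 had a difference of 0.03, Irx3 of 0.74 and Fst of -0.60, and 0 members were called.

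**Figure D4:**
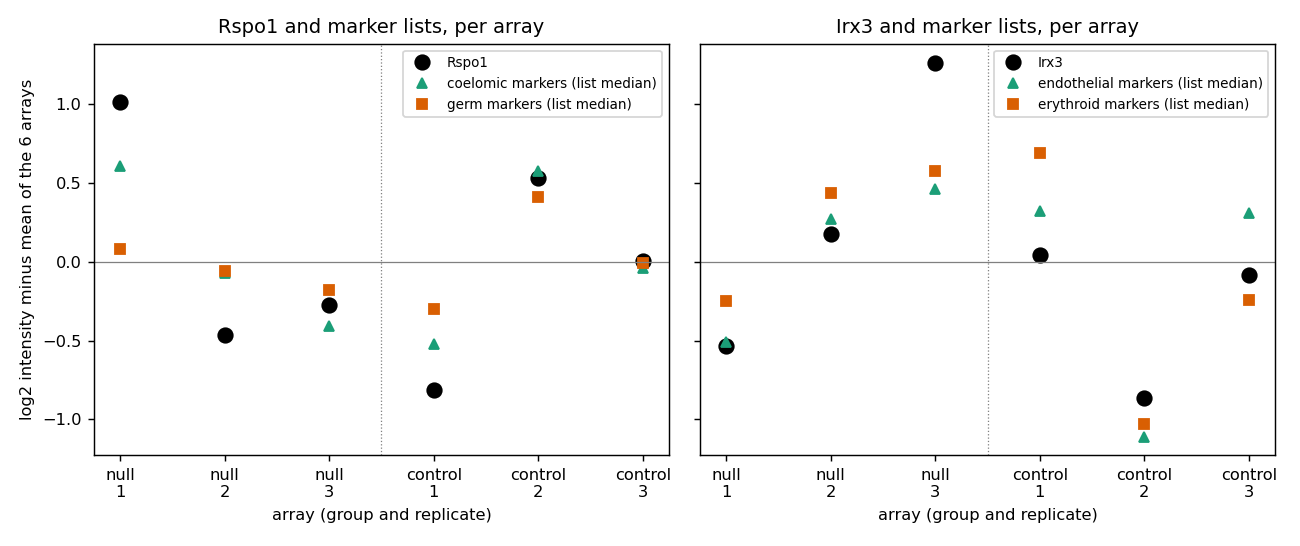
Log2 intensity centred on each gene's mean over arrays (vertical axis) in each array (horizontal axis, null left of control), for Rspo1 with coelomic and germ cell markers and for Irx3 with endothelial and erythroid markers; a marker point is the median over listed genes with signal above the array median in at least 1 array. Rspo1 is highest in null replicate 1 and control replicate 2, where Irx3 is lowest.

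For the 4 members with a mean log2 intensity of at least 6, the gene with the most similar profile over the 6 arrays was found among 11868 other genes, by Pearson's r of log2 intensity. It was Lss, an enzyme of cholesterol synthesis, for Rspo1 (r = 0.998), Slc16a1, a lactate transporter, for Fst (r = 0.996), Col8a1, a collagen, for Bmp2 (r = 0.996) and Rdx, which encodes the membrane linker radixin, for Wnt4 (r = 0.993). With 6 arrays, 601 genes reached r of at least 0.9 with Rspo1, 275 with Wnt4, 125 with Fst and 49 with Bmp2. Each r is a maximum over many genes measured in the same arrays, so it serves as a description.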

How the data were processed

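RNA of E13.5 gonads (100 ng) was amplified, labelled with biotin and hybridised to oligonucleotide arrays, according to the labels' protocols. The deposited table gives linear intensities that the authors made with GCRMA, per the submitters' processing notes. GCRMA corrects background and normalizes between arrays, so folds between dim values depend on it. Platform annotation gave 34958 probe sets 1 symbol, 932 several and 9211 none, and only the first were named.

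Intensities were taken to log2. Probe sets with a mean of at least 4 over the 6 arrays (22082) were analysed in limma 3.58.1 (R 4.3.3), with genotype group as the single factor, an intensity trend in eBayes and Benjamini-Hochberg adjustment over all of them. Tests were two-sided, with calls at an adjusted p under 0.05, and were tried on simulated data. Differences are null minus control. A gene's brightest probe set stands for it where 1 value is needed. Besides members, the genes named were those called in each list, otherwise the 2 of smallest p, together with Dmrt1, Sox9 and Amh. Lists of other cell types are an exception, given as summed levels with only the gene of lowest adjusted p and Igfbp5 named. Eif2s3y, Xist, Igfbp5 and the list members at background were chosen after seeing the data. The members and lists were chosen with earlier results of these data known. Between any 2 arrays 301 to 451 of 45101 values were equal. Deviations from group means correlated at -0.59, -0.34 and 0.14 between the null and control arrays of replicate numbers 1, 2 and 3. Whether equal numbers mark pairs cannot be told from these values. Alternatives covered filters, normalization, an added constant, the eBayes prior, array weights, the replicate block, single arrays left out, probe set choice and threshold.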

Additional observations from a re-analysis of the deposited data

How the results depend on the processing

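Across the 20 alternative settings 0 members were called, with the lowest adjusted p among members between 0.492 and 0.961, and the count with single arrays left out was 0 throughout. The lowest unadjusted p over these settings, 0.00338, was that of Fst with null replicate 1 and control replicate 2 both left out, a setting chosen after seeing the data (limma adjusted p = 0.833). Over all probe sets, 6 were called with the settings used throughout and 0 to 8 under the alternatives; the cause was not tested. With the replicate block 0 probe sets of the array were called, and Fst had an unadjusted limma p of 0.063 and an adjusted p of 0.961. As deviations from the group means across probe sets, null replicate 1 correlated best with control replicate 2 (r = 0.58) and not with control replicate 1. Whether equal replicate numbers mark a shared litter or handling cannot be told from such correlations.

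Of 8 tested member probe sets, 4 had the same sign in every setting that tested them: Fst (-0.81 to -0.37 with single arrays left out), Bmp2 (-0.47 to -0.06), Irx3 (0.12 to 1.02) and Runx1 1440878_at (-0.61 to -0.27). The other 4 turned in 12 values. The alternatives gave 145 values over all 8 probe sets, and only a part of these belong to the 4 that turned. With array weights Runx1 1422864_at was at 0.31 and Rspo1 at -0.04. With null replicate 1 and control replicate 2 both left out, Runx1 1422864_at was at 0.17, Wnt4 1441687_at at -0.04 and Wnt4 1450782_at at -0.06. Single arrays left out gave -0.29 to 0.25 for Runx1 1422864_at, -0.28 to 0.49 for Rspo1, -0.10 to 0.16 for Wnt4 1441687_at and -0.02 to 0.21 for Wnt4 1450782_at. The median over members ranged from -0.31 to -0.01 with single arrays left out. The cause was not tested. Signals near background limit Foxl2, Irx5, Esr2 and Lgr5, whose probe sets were tested only in the setting with no filter.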
